A study of Mus musculus with 6 samples.

Results

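The factors described here are Otx2, Zic2, Zic5, Fgf5, Pou3f1, Foxd3 and Sox3, genes that rise or are required as mouse epiblast cells leave the naive state of pluripotency for the primed state that precedes gastrulation. They were chosen by name. A row of the array table belonged to a factor when its annotated gene symbol was exactly that name, which gave 12 probe sets for the 7 genes, out of 34945 probe sets with 1 gene symbol and 18193 genes. Each gene was read on its brightest probe set, the one with the highest mean over the 6 arrays, and the other probe sets are given beside it.

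The cells were R1 mouse embryonic stem cells of the strain (129X1 x 129S1)F1, either Sirt1+/+ (wild type) or Sirt1-/- (knockout). The Sirt1 protein removes acetyl groups from other proteins and uses NAD to do so. Both genotypes were grown on dishes coated with 0.1% gelatin in medium with 15% heat-inactivated serum and 100 IU/ml leukaemia inhibitory factor (LIF), which keeps the cells undifferentiated. Total RNA of 3 samples per genotype was read on 1 Affymetrix array each. The labels name 1 source of cells per genotype and do not state whether it is a single clone nor whether separate cultures stand behind the 3 samples. The p-values therefore cover the spread between these samples alone, and that spread may be technical. An effect of Sirt1 loss and other differences between the sources cannot be told apart. RNA was taken from whole cultures, in which fewer cells of a kind and less RNA per cell cannot be told apart either.

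In the naive state, which LIF supports in culture, embryonic stem cells express Nanog, Klf factors and Esrrb. When they exit it they pass through a formative phase in which Otx2, a homeodomain factor, redirects the binding of Pou5f1 to a new set of enhancers, and Fgf5 and Pou3f1 are switched on as its classical markers. Foxd3 is a forkhead factor needed for epiblast survival and for that transition, Sox3 is a close relative of Sox2, and the zinc finger factors Zic2 and Zic5 bind enhancers that are used on the way to the primed epiblast and the neural plate.

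The check of the cells and of the genotype came out as follows. Levels are log2 units throughout, in which a difference of 1 is a 2-fold change. The targeted gene Sirt1, on chromosome 10, had a wild-type level of 10.16 ± 0.06 and a knockout level of 8.05 ± 0.14 (SD, n = 3 each), a log2 change of -2.11, and the labels do not say whether its probe set lies inside the deleted stretch. The stem cell factor Pou5f1 read 12.29 ± 0.04 and 12.39 ± 0.02, and Sox2 read 12.50 ± 0.06 and 12.20 ± 0.04 (SD, n = 3 each), so the defining markers of undifferentiated cells were present in both genotypes. Pearson's r between arrays was 0.997 to 0.998 within a genotype and 0.989 to 0.991 between genotypes, over genes, which are not independent replicates. Of the 18193 genes, 30% passed the threshold, an adjusted p under 0.05 in limma after Benjamini-Hochberg (BH) adjustment over all genes. Genes higher in knockout made up 12.5% and genes lower in knockout 17.5%, and 43.8% had knockout arrays that did not overlap with the wild-type arrays. Any count among the factors is to be read against these shares.

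Of the 7 factors, 1 rose in knockout, 2 fell and 4 did not pass, which is 42.9% past the threshold against 30% over all genes. Otx2 fell about 3-fold, Zic5 rose about 2-fold and Foxd3 fell by less, while Zic2, Pou3f1, Sox3 and Fgf5 did not pass. The groups did not overlap for 3 of the 7, a share near the 43.8% over all genes. The median log2 change of the 7 was -0.10, against -0.01 over all genes. The 3 factors that passed are shown first by the sequence before their transcription starts, so that the letters before genes that rose and fell can be set side by side. RefSeq (GRCm38.p6) held promoter windows for 4 of the 7 factors, namely Otx2 with 4 starts, Zic5, Fgf5 and Foxd3. The 250 bases before the most upstream Otx2 start (chr14:48667645-48667894, minus strand), before the Zic5 start (chr14:122465659-122465908, minus strand) and before the Foxd3 start (chr4:99656049-99656298, plus strand) are printed 5′ to 3′, with capitals for matches to the motifs listed after them.
Otx2: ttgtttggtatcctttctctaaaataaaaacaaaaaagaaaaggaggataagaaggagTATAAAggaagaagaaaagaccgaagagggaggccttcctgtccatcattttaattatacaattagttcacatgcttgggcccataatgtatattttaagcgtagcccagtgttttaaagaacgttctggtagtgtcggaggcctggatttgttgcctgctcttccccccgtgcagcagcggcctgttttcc
Zic5: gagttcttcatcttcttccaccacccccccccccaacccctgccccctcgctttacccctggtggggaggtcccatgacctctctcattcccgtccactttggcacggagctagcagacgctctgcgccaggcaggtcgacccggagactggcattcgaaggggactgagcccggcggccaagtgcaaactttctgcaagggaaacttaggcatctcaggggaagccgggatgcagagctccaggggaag
Foxd3: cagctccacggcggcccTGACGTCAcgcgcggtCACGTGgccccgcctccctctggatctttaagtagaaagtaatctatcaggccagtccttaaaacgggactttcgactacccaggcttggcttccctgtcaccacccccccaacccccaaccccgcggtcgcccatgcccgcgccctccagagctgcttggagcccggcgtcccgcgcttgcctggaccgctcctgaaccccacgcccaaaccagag
The motifs searched on both strands were TAATCC (the core bound by OTX-type homeodomains), ATGCAAAT (the octamer bound by POU factors), ACAAAG (bound by SOX factors), TATAAA (a core promoter element), the motif CCAAT bound by NF-Y, the cyclic AMP response element TGACGTCA and the E-box CACGTG. No 2 of these matches overlapped. The Foxd3 stretch held TGACGTCA, found in 1.55% of all 32851 RefSeq windows of this length, and CACGTG, found in 6.02%. The printed Otx2 stretch held a single match, TATAAA, which starts 192 bases before the start and is present in 12.4% of windows. A match to TAATCC, present in 6.25% of windows, lay 211 to 206 bases before another Otx2 start, further downstream. The other windows not printed held 2 more matches. CCAAT, in 33.8% of windows, lay 70 to 66 bases before a different Otx2 start. ACAAAG, in 16.5%, lay 27 to 22 bases before the Fgf5 start. The Zic5 stretch held none of these letters. The base composition of the 3 stretches differed, with a GC content of 42.0% before Otx2, 62.4% before Zic5 and 65.6% before Foxd3, against a median of 52.4% over all windows. Before the other Otx2 starts it was 49.2%, 48.4% and 53.6%. The CG dinucleotide occurred 6 times in the printed Otx2 stretch, 11 times in that of Zic5 and 21 times in that of Foxd3. The median was 6 over all windows. A match is a description of letters and not a bound site.

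Otx2 was the factor with the largest change. It has 1 probe set (1425926_a_at, gene on chromosome 14). The wild-type arrays read 7.38, 7.45 and 7.63, and the knockout arrays 5.87, 5.80 and 6.09. Every wild-type array was high and every knockout array low, with more than 1 log2 unit between the groups. The means were 7.49 ± 0.13 and 5.92 ± 0.15 (SD, n = 3 each), a log2 change of -1.57 with an SE of 0.10 (limma, BH-adjusted p = 0.000145), which is a 2.96-fold lower level in knockout. The knockout level still lay above the median of all probe sets on each of the 6 arrays (4.51 to 4.57). An exact two-sided permutation test over the 6 arrays gave p = 0.1, the smallest value that 3 against 3 allow.

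Otx2 is also a factor of visceral endoderm, a descendant of the primitive endoderm that can arise in stem cell cultures, and markers of primitive endoderm moved with it. Of 17 measured markers 10 fell in knockout and none rose in limma (1 was higher at an unadjusted p under 0.05). That is 58.8% past the threshold, against 30% over all genes, and 17.5% of all genes were lower. The mean level of the 17 ranged from 6.20 to 6.25 over the wild-type arrays and from 5.33 to 5.46 over the knockout arrays. Gata6, a defining factor of this lineage, read 6.23 ± 0.07 and 4.90 ± 0.22, and Sox17 read 5.50 ± 0.09 and 4.72 ± 0.16 (SD, n = 3 each). Gata4 fell short of the threshold, at 4.33 ± 0.05 and 4.16 ± 0.13 (SD, n = 3 each), and both means lay below the median of all probe sets. The mean lay below the lowest array median for 2 of the 17 markers in wild type and for 6 in knockout. The largest falls were those of Cubn (-2.24), an endocytic receptor, Dab2 (-1.80), an endocytic adaptor, Pdgfra (-1.52), a growth factor receptor, and Col4a2 (-1.52), a chain of basement membrane collagen. These values come from the brightest probe sets. In the fit over all probe sets, the other ones of Gata6 (-0.35 and -0.04) and Pdgfra (0.11 and -0.09) did not pass. Of those of Dab2 (-0.22, -0.28 and -0.47) only the last passed. Those of Cubn (-1.27) and Sox17 (-1.95) passed. Afp and Ttr, secreted by visceral endoderm, had log2 changes of -0.01 and -0.08 on their brightest probe sets, neither past the threshold. A dim Ttr probe set, at 3.05 in wild type, fell by 0.65 (limma, BH-adjusted p = 0.00367 over all probe sets). The part of such cells in the Otx2 result was not tested.

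Neither measured paralogue of Otx2 passed. Otx1 had a log2 change of -0.11 and Crx, the photoreceptor member of the family, of -0.04, neither past the threshold. The 5 genes with the profile closest to that of Otx2 over the 6 arrays, measured by the root mean square difference of mean-centred levels among 8879 genes above the median level, were Ppm1h (0.0520 log2 units apart), a protein phosphatase, Id2 (0.0719), an inhibitor of basic helix-loop-helix factors, Col4a2 (0.0866), the lysosomal protease Ctsh (0.0978) and the linker histone H1f2 (0.104). Their log2 changes lay between -1.44 for Id2 and -1.65 for Ppm1h. Col4a2 is also a marker of the primitive endoderm list above. Each of the 5 lies on a different chromosome from Otx2.

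Zic5 rose, and it did so on all of its 3 probe sets. On the brightest (1456219_at, gene on chromosome 14) it read 5.92, 5.90 and 6.27 on the wild-type arrays and 7.05, 7.17 and 7.18 on the knockout arrays. The lowest knockout array stood well above the highest wild-type array. The means were 6.03 ± 0.21 and 7.14 ± 0.07 (SD, n = 3 each), a log2 change of 1.11 with an SE of 0.11 (limma, BH-adjusted p = 0.000608) and a 2.15-fold higher level in knockout.

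The other Zic5 probe sets gave the same direction. The second (1456140_at) read 5.57, 5.85 and 5.96 on the wild-type arrays and 6.63, 6.86 and 6.90 on the knockout arrays, a log2 change of 1.004. The dimmest (1425666_at) read 4.34, 3.92 and 4.02 against 4.91, 4.67 and 5.18, a log2 change of 0.83, and it lay below the median of all probe sets on 3 of the 6 arrays. Neither overlapped between genotypes, and in the fit over all 45037 probe sets, of which 19.8% passed, their BH-adjusted p in limma was 0.00176 and 0.0106.

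Zic2 lies beside Zic5 on chromosome 14 and was dim. Its probe set (1421301_at) read 3.50, 3.74 and 3.46 on the wild-type arrays and 4.02, 4.14 and 3.74 on the knockout arrays, below the median of all probe sets on 6 of 6 arrays. The third knockout array lay marginally below the second wild-type array, so the groups overlapped. The log2 change was 0.40 (SE 0.12 and 95% interval 0.10 to 0.69; limma, BH-adjusted p = 0.0526), which missed the threshold. Without wild-type replicate 2 it passed, at 0.49 (limma, BH-adjusted p = 0.0408), and without knockout replicate 3 likewise, at 0.51 (0.0202). It also passed with arrays centred on their medians (0.42; limma, BH-adjusted p = 0.0321). It missed the threshold without wild-type replicate 1 (0.36; limma, BH-adjusted p = 0.147) or wild-type replicate 3 (0.34; 0.141). The same held without knockout replicate 1 (0.37; 0.132) or knockout replicate 2 (0.31; 0.142). Of the 13 alternatives run for Zic2, 7 passed.

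The levels of the neighbouring Zic genes were also set against each other within arrays. The Zic5 minus Zic2 difference averaged 2.46 ± 0.33 over wild-type arrays and 3.17 ± 0.24 over knockout arrays (SD, n = 3 each). It grew by 0.71, with no overlap between genotypes (exact two-sided permutation p = 0.1, the smallest that 3 against 3 allow, so no call can be made). Zic2 was below the median of all probe sets on every array, and how far its dimness sets the size of this difference was not tested. Other members of the family were dim and did not pass: Zic1 had a log2 change of 0.11 and Zic4 of 0.09, with group means no higher than 2.88 and 3.27.

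The genes with the profile closest to that of Zic5 were Tmem29 (0.0501 log2 units apart), the steroid dehydrogenase Hsd17b1 (0.0684), the mitochondrial tRNA-modifying enzyme Gtpbp3 (0.0756), the mitochondrial carrier Slc25a53 (0.0787) and the retinol dehydrogenase Rdh11 (0.0822). Their log2 changes were between 1.01 for Rdh11 and 1.14 for Hsd17b1.

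**Figure D1:**
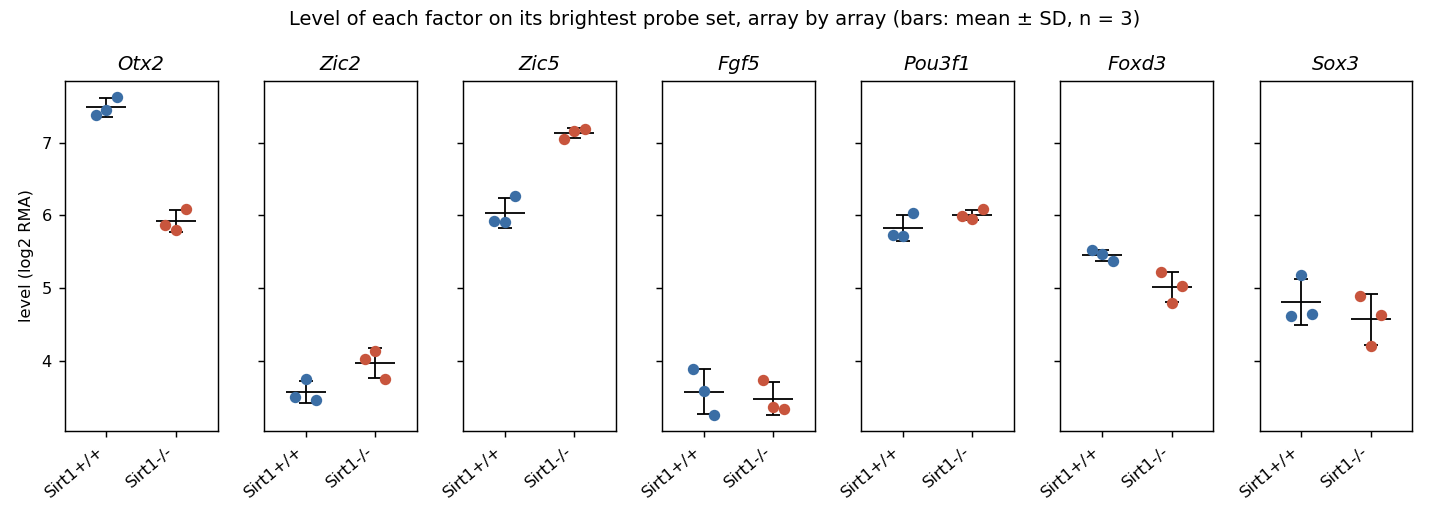
Level of each factor in log2 RMA units on its brightest probe set, with a point per array (Sirt1+/+ in blue, Sirt1-/- in red) and bars for the mean ± SD of 3 arrays. The groups stand apart for Otx2 (7.49 against 5.92), Zic5 (6.03 against 7.14) and Foxd3 (5.45 against 5.01) and overlap for the other 4; levels of different genes come from different probes and are not to be compared.

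Foxd3 fell modestly. Its probe set (1422210_at, gene on chromosome 4) read 5.52, 5.46 and 5.37 on the wild-type arrays and 5.22, 4.795 and 5.02 on the knockout arrays. The knockout arrays were all lower, the first of them by little. The means were 5.45 ± 0.08 and 5.01 ± 0.21 (SD, n = 3 each), a log2 change of -0.44 with an SE of 0.11 (limma, BH-adjusted p = 0.0260), or 1.36-fold lower. The call was lost without wild-type replicate 1 (-0.40; limma, BH-adjusted p = 0.0877), without wild-type replicate 2 (-0.43; 0.0736) and without knockout replicate 3 (-0.44; 0.0695). Among the other FoxD genes, Foxd1 rose by 0.26 at group means no higher than 3.34. Foxd2 had a log2 change of -0.21 and Foxd4 of -0.26, neither past the threshold.

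Pou3f1, which encodes the POU factor Oct6, did not pass on either probe set. The brighter (1460038_at, gene on chromosome 4) read 5.73, 5.72 and 6.03 on the wild-type arrays and 5.99, 5.95 and 6.09 on the knockout arrays. The third wild-type array lay within the range of the knockout arrays. The log2 change was 0.18 (SE 0.10 and 95% interval -0.05 to 0.41; limma, BH-adjusted p = 0.211). Without that array, wild-type replicate 3, it was 0.29 and passed (limma, BH-adjusted p = 0.0256).

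The dimmer Pou3f1 probe set (1422068_at) read 5.12, 5.28 and 5.29 against 5.46, 5.62 and 5.32. It did not overlap between genotypes, with a log2 change of 0.24 that missed the threshold (limma, BH-adjusted p = 0.137 over all probe sets). The neural paralogues Pou3f2, Pou3f3 and Pou3f4 had log2 changes of 0.04, 0.09 and 0.16, none past the threshold.

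Sox3, on the X chromosome, varied more between arrays of a genotype than between genotypes. Its brighter probe set (1435192_at) read 4.61, 5.18 and 4.64 on the wild-type arrays and 4.89, 4.19 and 4.63 on the knockout arrays, a log2 change of -0.24 (SE 0.22 and 95% interval -0.77 to 0.29; limma, BH-adjusted p = 0.492). The other (1450485_at) read 4.56, 4.85 and 4.56 against 4.85, 4.68 and 4.53, a change of 0.03. The groups overlapped on both. Its relative Sox2, which shares the HMG-box DNA-binding domain, fell by 0.31 on the log2 scale. Sox1, a marker of neural plate, had a change of 0.06 on its brightest probe set that did not pass. The other Sox1 probe set, at 4.26 ± 0.15 and 3.82 ± 0.15 (SD, n = 3 each), fell by 0.44 (limma, BH-adjusted p = 0.0281 over all probe sets). Of 3 Y-linked genes measured, Uty fell by 4.22, Eif2s3y fell from 9.54 to 9.13, and Kdm5d, dim in both genotypes, had a change of 0.11 that did not pass. The part of sex chromosome content in these results was not tested.

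Fgf5, the secreted marker by which primed epiblast is usually recognised, was dim in both genotypes. Its brighter probe set (1426186_a_at, gene on chromosome 5) read 3.88, 3.58 and 3.25 on the wild-type arrays and 3.73, 3.36 and 3.33 on the knockout arrays, below the median of all probe sets on 6 of 6 arrays. The log2 change was -0.10 (SE 0.18 and 95% interval -0.53 to 0.34; limma, BH-adjusted p = 0.752). The other (1438883_at) read 2.41, 2.51 and 2.64 against 2.46, 2.97 and 2.46, under each array's lower quartile (3.16 to 3.24), with a change of 0.11. The spread within a genotype exceeded the difference between genotypes on both. Fgf4, the growth factor of naive cells that drives the exit through ERK, fell by 0.29 at a level of 11.02 ± 0.07 in wild type (SD, n = 3). A less bright Fgf4 probe set, which read 7.50 in wild type, rose by 0.50, so the Fgf4 direction depended on the probe set.

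**Figure D2:**
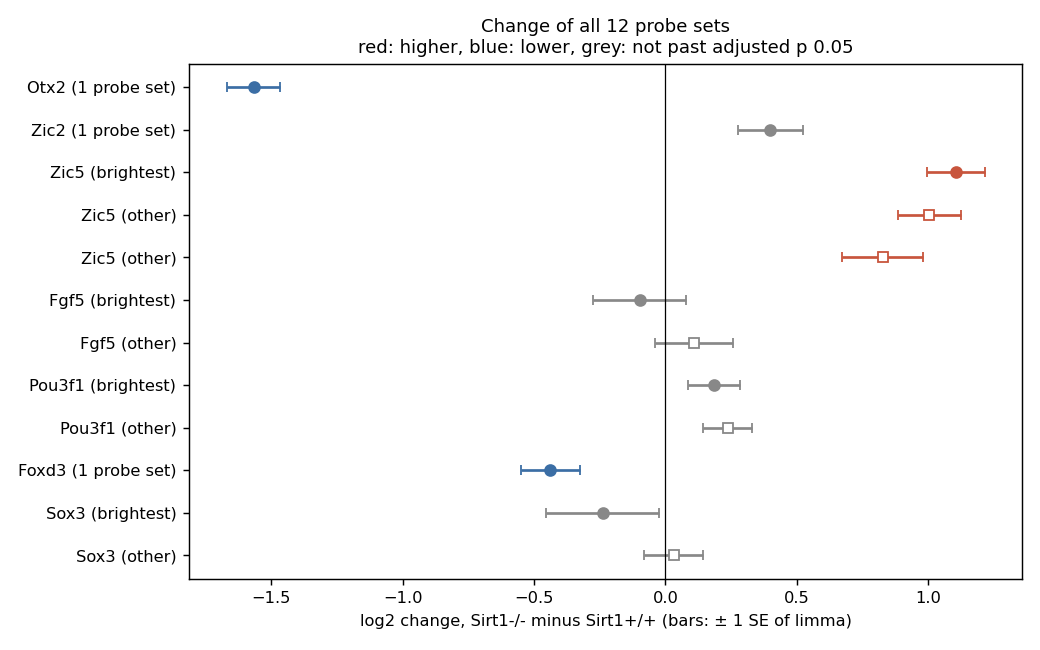
Log2 change, Sirt1-/- minus Sirt1+/+, of the 12 probe sets, with bars of ± 1 SE from limma over all probe sets; filled points are the brightest probe set of a gene and open squares the others. The 3 Zic5 probe sets lie between 0.83 and 1.11, Otx2 lies at -1.57, and the Fgf5 and Sox3 pairs straddle 0.

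The wider program of formative and primed epiblast moved in both directions. Of 34 other genes of that program measured, 4 rose, 12 fell and 18 did not pass, which is 47.1% past the threshold against 30% over all genes. Their median log2 change was -0.05. The largest fall was in a gene of Nodal signalling. Lefty1, a secreted Nodal antagonist, read 9.34, 9.35 and 9.43 on the wild-type arrays and 7.62, 7.49 and 7.56 on the knockout arrays, a log2 change of -1.82 (limma, BH-adjusted p = 2.62e-05). Its relative Lefty2 fell by 1.005, the ligand Nodal by 0.73 and the Nodal coreceptor Tdgf1 by 0.65. Not every gene tied to this pathway fell. Cer1, another secreted Nodal antagonist of the list, had a change of 0.05 that did not pass. Eomes (0.08), Mixl1 (-0.25) and Lhx1 (0.14), which respond to Nodal signalling in the embryo, did not pass either. The groups were separate for Lefty1, Lefty2, Nodal and Tdgf1, all past the threshold and named with their values known. Over all genes 43.8% were separate.

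Outside the Nodal pathway, Grhl2, an epithelial transcription factor that maintains enhancers of epithelial genes in primed cells, was lower by 1.45 on the brightest probe set. Its dimmer probe sets had changes of -0.12, -0.11 and 0.34, the last past the threshold in the opposite direction. Fgf15 and the transcription factor Sox4 fell by 0.62 and 0.60, the tight junction gene Cldn6 by 0.44 and the receptor Epha1 by 0.35. The ETS factors Etv4 and Etv5, both targets of FGF signalling, parted: Etv4 rose by 1.13, from 7.66 ± 0.12 to 8.79 ± 0.01 (SD, n = 3 each), and Etv5 fell by 0.45, from 10.61 ± 0.01 to 10.16 ± 0.02 (SD, n = 3 each). The DNA methyltransferases of the primed state also parted, with Dnmt3a higher by 0.79 and Dnmt3b lower by 0.39. Dnmt3a probe sets ranged from 0.79 down to -0.02. Krt18 and Tead2 rose by 0.60 and 0.47.

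Of the same list, the Wnt antagonist Dkk1 fell by 0.52, with dim group means of 3.86 and 3.34. Eomes had a log2 change of 0.08, Mixl1 of -0.25, Lhx1 of 0.14 and Cer1 of 0.05, none past the threshold. Of 11 early neural genes, 2 rose and 1 fell, which is 27.3% past the threshold, near the 30% over all genes. The neuronal tubulin Tubb3 rose by 0.76, the intermediate filament Nes by 0.43, and Map2 fell by 0.59. Without wild-type replicate 1 the count was 1 of the 11. The neural factor Pax6 had a change of -0.04 on its brightest probe set, while 3 of its 4 dimmer probe sets passed as higher, with changes of up to 1.51. The groups separated for 4 of the 11, against 43.8% of all genes.

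Naive pluripotency genes were mostly lower. Of 19 measured, 1 rose, 13 fell and 5 did not pass, with a median log2 change of -0.25. That is 73.7% past the threshold, against 30% over all genes, and 17.5% of all genes were lower. Nanog read 11.92, 11.84 and 11.96 on the wild-type arrays and 10.98, 11.02 and 11.01 on the knockout arrays, a log2 change of -0.90. Klf5 and the chromatin regulator Prdm14 fell by 0.87 and 0.84, Zfp42 by 0.23, and Dppa3, a maternal factor that protects DNA methylation, rose by 1.70. Esrrb did not pass, with a change of 0.03 on its brightest probe set, while the dimmest of its 3 probe sets was higher by 0.57 (limma, BH-adjusted p = 0.00545 over all probe sets). Whether the naive and primed lists differ was not tested. Of 14 paralogues of the factors measured, 1 rose and 2 fell, with a median of 0.00. This share, 21.4%, was below the 30% over all genes. The lists also differed in level. The mean in wild type was 9.98 for naive genes, 11.09 for genes shared by both states, 4.78 for paralogues and 4.32 for early neural genes. The part of level in these shares was not tested. Of 7 genes shared by both states, Lin28a rose by 0.63, L1td1, Sall4 and Sox2 fell by 0.63, 0.44 and 0.31, and 3 did not pass. Here 57.1% passed, against 30% over all genes. Sox1, Sox2, Sall4, Fgf4 and Utf1 stand in more than 1 of these lists.

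Markers of trophectoderm and fibroblasts passed at shares near the 30% over all genes, 22.2% of 9 and 33.3% of 12. Of the trophectoderm markers, Krt8 rose by 0.40 and Krt7 fell by 0.89, and Cdx2, the defining factor, read a change of 0.05. Of the fibroblast markers, which would report feeder cells, 2 rose and 2 fell. Vim, also an intermediate filament of primed cells, rose by 1.28 and Twist1 by 0.48, and Thy1 and Pdgfrb fell by 1.07 and 0.50. The collagens Col1a1, Col1a2 and Col3a1, defining for fibroblasts, had group means no higher than 3.61 and did not pass. The part of such cells in these results was not tested.

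**Figure D3:**
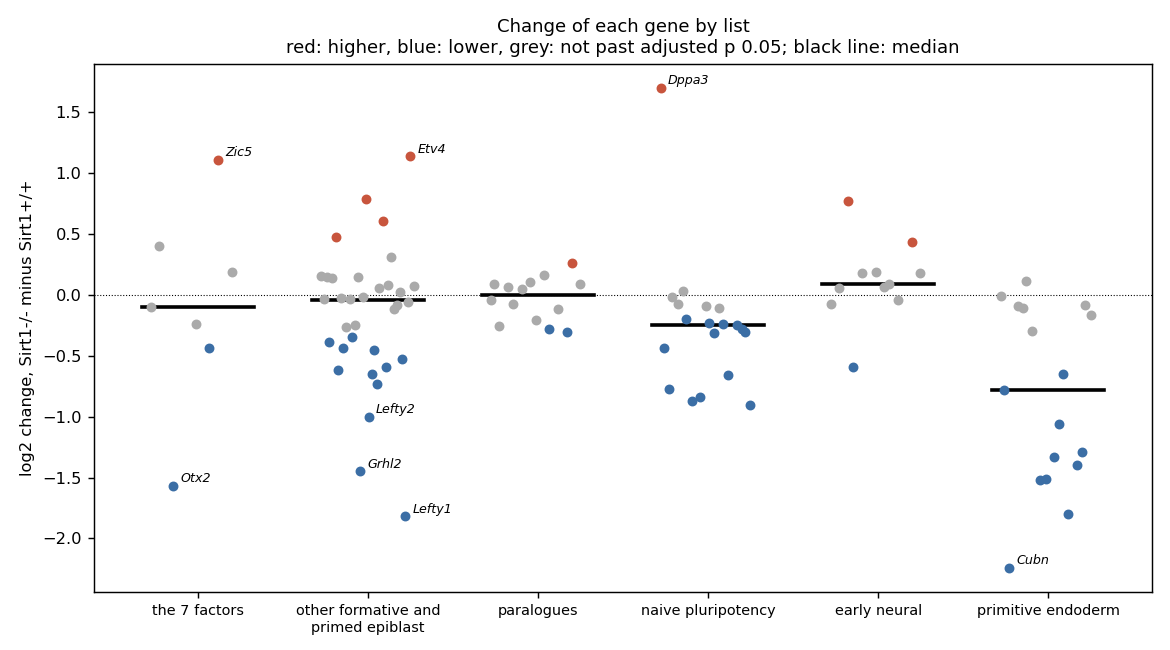
Log2 change, Sirt1-/- minus Sirt1+/+, of each measured gene by list, with red for higher, blue for lower and grey for not past the threshold; the black line is the list's median. The median is -0.10 for the 7 factors, -0.05 for the other formative and primed genes, -0.25 for naive genes and -0.78 for primitive endoderm markers.

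The surroundings of the factors on their chromosomes were compared next, since position had no role in their choice. The 5 measured genes on each side of every factor made 61 neighbours in all. Of these, 2 were higher and 15 lower, which is 27.9% past the threshold against 30% over all genes. By direction, 12.5% of all genes were higher and 17.5% lower, so the calls among the neighbours leaned more to the lower side. Around Otx2, 1 of 10 neighbours passed, the adaptor complex subunit Ap5m1, which fell by 0.33. The adjoining transcript Otx2os1 read 3.33 ± 0.16 and 3.41 ± 0.23 (SD, n = 3 each). The changes of the 10 neighbours ran from -0.33 to 0.14, against -1.57 for Otx2.

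Around Zic5, the citrate lyase-like gene Clybl fell by 0.66 and 2610035F20Rik, a dim transcript between Zic5 and Zic2, by 0.32. None of the 10 neighbours of Zic5 passed as higher in limma, and 2, Zic2 among them, were higher at an unadjusted p under 0.05. Around Zic2, Nalcn, a sodium leak channel, also fell, by 0.22. Of the 10 neighbours of Foxd3, 5 were lower and none higher in limma (2 were higher at an unadjusted p under 0.05), where 17.5% of all genes were lower. Their changes ran from -1.31 to 0.35, on both sides of Foxd3's own -0.44. The 5 were Patj (-1.31), a polarity scaffold, Efcab7 (-1.24), the glucose-handling enzyme Pgm1 (-0.69), L1td1 (-0.63), an RNA-binding protein of pluripotent cells, and Kank4 (-0.62). The nearest neighbours of Foxd3 on either side, Atg4c and Alg6, had changes of 0.35 and 0.06 that did not pass.

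Around Sox3, Mcf2, a guanine nucleotide exchange factor, fell by 2.05, Fgf13 by 1.08 and 4933402E13Rik by 0.73, while Sox3 itself did not pass. Around Fgf5, Paqr3 rose by 0.17 and A930011G23Rik fell by 0.34. Around Pou3f1, the Rag GTPase Rragc rose by 0.50 and the splicing factor Sf3a3 and the processome subunit Utp11 each fell by 0.25.

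**Figure D4:**
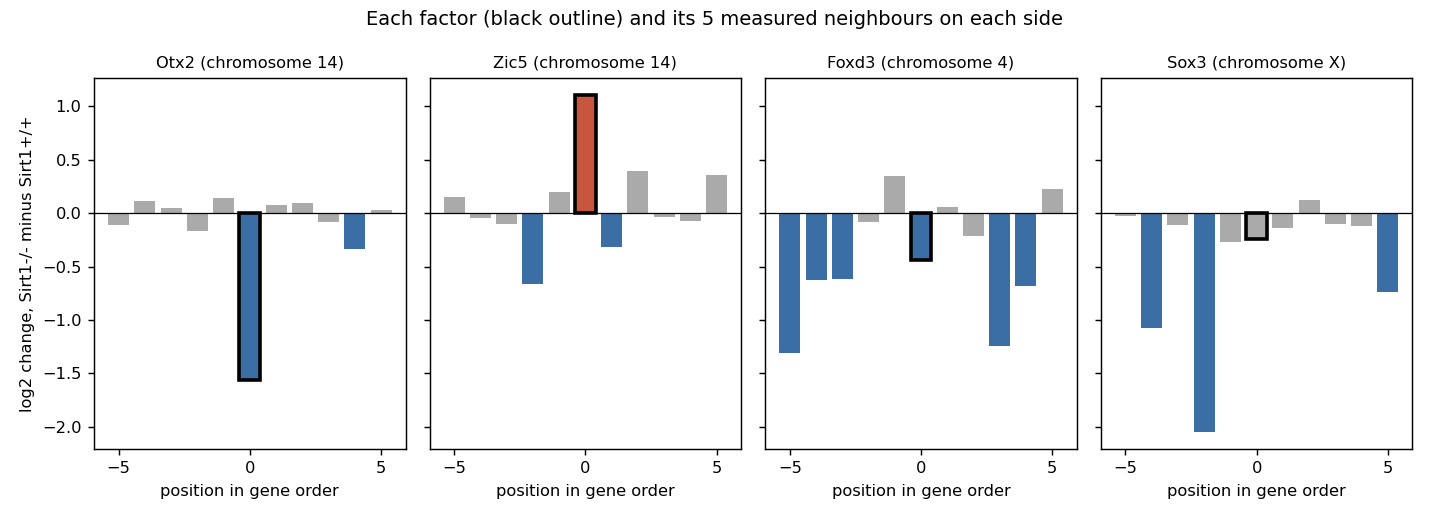
Log2 change, Sirt1-/- minus Sirt1+/+, of 4 factors (black outline) and of the 5 measured genes on each side in RefSeq gene order, with red for higher, blue for lower and grey for not past the threshold. Otx2 (-1.57) and Zic5 (1.11) lie outside the range of their neighbours, whereas Foxd3 (-0.44) lies within a range of -1.31 to 0.35.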

How the data were processed

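RNA of 3 wild-type and 3 knockout samples was read on Affymetrix arrays. The deposited values are log2 levels that the authors computed by RMA (background correction, quantile normalisation and a summary per probe set) with Partek 6.5, as the submitters' processing notes list. Their settings and annotation were not found in the labels, and the log2 scale was taken from the values' range. They were used without recentring. The number of arrays limits the precision.

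Of 45101 probe sets, 64 controls were left out; 34945 had 1 gene symbol, 932 several and 9160 none, and only the first were used for genes, through GEO's platform annotation. By Entrez identifier 18031 of 18193 genes matched RefSeq GRCm38.p6, which gave chromosomes and gene order. Genes were compared in limma 3.58.1 (R 4.3.3; lmFit and eBayes, two-sided, Benjamini-Hochberg over all genes). The factors and lists were chosen with earlier results of these data known. The lists were primed, naive, shared and paralogous genes, early neural genes, primitive endoderm, trophectoderm, fibroblast and Y-linked markers; some genes of these lists are not reported here. Named were the 7 factors, Sirt1, the 4 most changed genes of each list among those past the threshold, Pou5f1, Sox2, Nanog, Zfp42, numbered paralogues, neighbours past the threshold and the 5 genes most alike to Otx2 and to Zic5; other names were chosen after their values were seen. Like-numbered samples were not treated as pairs: their deviations correlated at 0.0515, -0.0865 and 0.198 over genes. Simulated data with 18193 genes had 50 genes changed at each of 4 sizes, 0.25, 0.5, 1 and 2 log2 units. Of these, 16%, 60%, 90% and 100% were recovered, with 4 false calls. In the data 30% of genes passed, a far larger share, so recovery there may differ from these rates. Alternatives tried were repeated quantile normalisation, median centring, leaving out the dimmest 40% of genes, averaging a gene's probe sets, an intensity trend with robust variance, a replicate block, each array left out, an adjusted p under 0.01 and all probe sets tested.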

Additional observations from a re-analysis of the deposited data

How the results depend on the processing

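Otx2 and Zic5 kept their direction and their side of the threshold under the 14 alternatives run for each, with log2 changes of -1.65 to -1.50 and 0.98 to 1.22. Without 1 array in turn, Foxd3 ranged from -0.54 to -0.33, Zic2 from 0.31 to 0.51, Pou3f1 from 0.13 to 0.29, Sox3 from -0.40 to -0.05, never past the threshold, Fgf5 from -0.26 to 0.06 (0.0562, without wild-type replicate 1) and the early neural count from 1 to 3. Foxd3, at -0.44, did not pass an adjusted p under 0.01, where 1 paralogue and 1 early neural gene passed. Zic2 passed the threshold in limma after repeated quantile normalisation (0.40), with arrays centred on medians (0.42), with a gene's probe sets averaged (0.40), with an intensity trend and robust variance (0.40), where 7 shared pluripotency genes passed, and with the replicate number as a block (0.40). With the block the single-gene calls of the other 6 factors stayed on their side of the threshold, and 17 in place of 16 formative and primed genes, 4 in place of 3 paralogues and 16 in place of 17 neighbours passed. Averaging probe sets turned the Fgf5 change to 0.0050. The cause was not tested for any of these. Zic2, Fgf5 and Sox3 were not among the genes left without the dimmest 40% of genes, so that alternative gave no value for them. Low signal over background limits what can be said of Zic2, which passed in 7 of its 13 alternatives, and of Fgf5.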
